A study of Mus musculus with 8 samples.

Results

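Cadherins and protocadherins are single-pass or membrane-anchored adhesion proteins, and their transcripts were followed here in the aortas of mice given colchicine or vehicle. The genes were chosen from the deposited table by symbol, as every Cdh gene with a number and every Pcdh gene that had at least 40 counts over the 8 libraries. Cdh5, the cadherin of endothelial junctions, was excluded by that rule. Of 22063 genes in the table, 92 carried such a symbol and 70 met the rule, 16 of them Cdh genes and 54 Pcdh genes. Another 21 fell under the count limit, 13 of them alpha-cluster protocadherins, and 7 of the 21 had no count in any library. Just inside the limit lay Cdh17 with 40 counts and Cdh10 and Pcdh15 with 45 each. Just outside it lay Pcdha4 with 22.2 and Cdh15 with 22.

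The study used male C57BL/6J mice that were 3 weeks old at the start and were fed chow. The colchicine group received 200 µg of colchicine per kg body weight per day by gavage, and the vehicle group received saline by gavage. All mice of both groups also drank BAPN (beta-aminopropionitrile, an inhibitor of the collagen and elastin cross-linking enzyme lysyl oxidase) at 1 g per kg per day for 3 weeks, so every value below comes from aortas with that treatment, and mice without BAPN were not analysed here. Colchicine binds tubulin and blocks microtubule growth. Each group had 4 bulk RNA-seq libraries. The labels do not state whether each library came from a separate animal, so p-values measure the spread between these libraries.

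Classical cadherins bind their own kind on the neighbouring cell through extracellular repeats that need calcium, and bind beta- and p120-catenin inside the cell, which link them to actin. Type I cadherins (E-, N-, P- and R-cadherin) and type II cadherins (Cdh6, Cdh11, Cdh18 and others) share this plan. Cdh13 has no cytoplasmic tail and is held by a GPI anchor. Protocadherins lack the classical catenin-binding tail. The clustered ones lie in 3 tandem arrays, alpha, beta and gamma, in which each variable exon has its own promoter, and the alpha and gamma isoforms splice to shared constant exons. Clustered protocadherins are best known for giving neurons an individual surface identity. In the vessel wall, N-cadherin and Cdh13 are carried by smooth muscle, VE-cadherin (Cdh5) and Pcdh12 by endothelium, and Cdh11 by fibroblasts.

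The libraries held 15427880 to 18459988 counts. Vehicle 1 and vehicle 4 stood apart through haemoglobin transcripts, which took 14.9% and 6.21% of their counts, against 0.0419% to 0.318% in the other 6 libraries. As a check of the aortic label, 8 smooth muscle markers were all detected and together gave 23223 to 31728 CPM (counts per 1000000, scaled by edgeR's TMM factors) in the colchicine libraries and 6305 to 21579 CPM in the vehicle libraries, and Myh11, Myocd and Lmod1 of the 8 were called higher. A list of 8 fibroblast markers gave 20446 to 24394 CPM in colchicine libraries and 7795 to 71561 CPM in vehicle libraries, with none of the 8 called. All 8 genes of each list were detected. Leukocyte markers gave 126 to 267 CPM in colchicine libraries and 494 to 2178 CPM in vehicle libraries, and 7 of 8 were called lower. In bulk tissue, fewer cells of a type and less RNA per cell cannot be told apart, and this holds for every gene below.

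Of the 70 genes, 63 passed edgeR's low-count filter and 7 did not. With edgeR's quasi-likelihood test, 10 of the 63 (15.9%) had a Benjamini-Hochberg adjusted p below 0.05, computed over 13431 genes, against 34.4% of all genes tested. Of the 10, 4 were raised by colchicine (Cdh6, Pcdh7, Cdh18 and Cdh13) and 6 were lowered (Cdh1, Pcdh12, Pcdh1, Pcdh17, Cdh11 and Cdh23). Among all genes, 17.4% were raised and 17% were lowered. The share of adhesion genes past the threshold was thus below the background. The median log2 fold change of the 63 genes was 0.18, beside -0.03 over all genes. The genes were expressed at low levels, with a median mean of 5.34 CPM beside 21.9 CPM for all genes tested.

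By family, each of the 10 calls fell among the 23 tested genes outside the protocadherin clusters (43.5% of them, against 34.4% of all genes tested). Of the 40 tested clustered protocadherins, 0 were called. By subfamily, type I cadherins had 1 lowered of 4 tested, type II cadherins had 2 raised and 1 lowered of 5, the GPI-anchored Cdh13 was raised, the remaining cadherins had 1 lowered of 3, and non-clustered protocadherins had 1 raised and 3 lowered of 10. The libraries of the groups did not overlap in 13 of the 63 genes (20.6%), 8 higher and 5 lower with colchicine, against 39.1% of all genes tested. These 13 were 9 of the called genes, all but Cdh11, together with Pcdhb14, Pcdh20, Pcdh11x and Cdh16, which were not called.

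**Figure D1:**
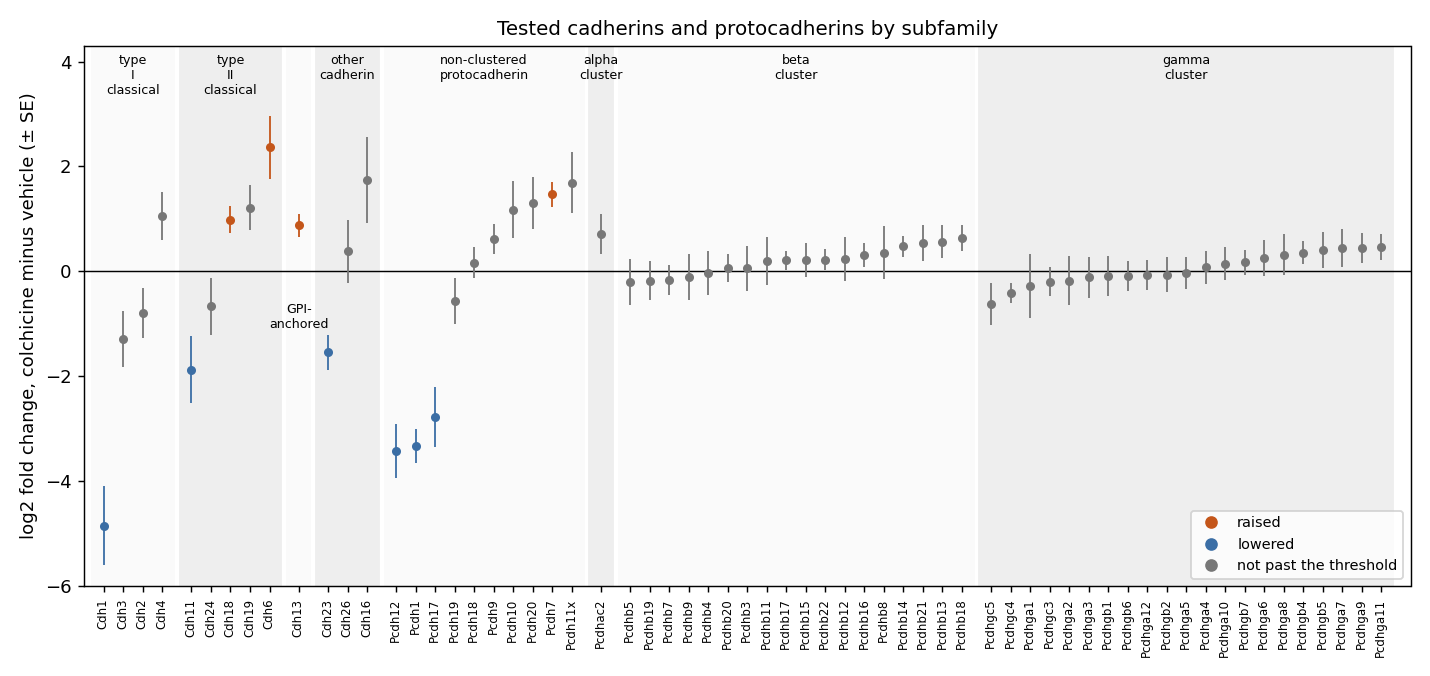
Log2 fold change (colchicine minus vehicle, edgeR) with its standard error for the 63 tested genes, by subfamily; orange marks genes raised, blue lowered, and grey not past an adjusted p of 0.05. The 10 called genes lie outside the alpha, beta and gamma clusters, whose 40 tested genes lie between -0.62 and 0.71.

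Sequence upstream of the start site is shown for called genes on both sides, 2 raised and 2 lowered, since it lets the starts of genes that moved in opposite directions be compared. The sequences are from RefSeq (GRCm38.p6). Of the 10 called genes, 5 matched the promoter table, and 4 are printed. For Cdh6, Pcdh17 and Cdh23 they are the 250 bases before the start. For Pcdh7 they are the 136 bases that precede the earlier GENCODE start. Capitals mark E-boxes (CANNTG) and GC boxes (GGGCGG or CCGCCC on either strand). The 2 GC boxes in Cdh6 overlap each other.
Cdh6 (raised, chr15:13173676-13173925, minus strand): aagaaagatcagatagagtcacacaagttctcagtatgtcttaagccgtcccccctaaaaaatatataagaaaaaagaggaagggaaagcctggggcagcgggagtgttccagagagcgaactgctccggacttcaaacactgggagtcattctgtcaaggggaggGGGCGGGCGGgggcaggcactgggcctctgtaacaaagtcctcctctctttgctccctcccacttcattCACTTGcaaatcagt
Pcdh7 (raised, chr5:57717831-57717966, plus strand): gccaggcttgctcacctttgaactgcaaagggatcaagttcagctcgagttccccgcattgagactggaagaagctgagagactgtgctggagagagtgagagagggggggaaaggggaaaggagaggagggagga
Pcdh17 (lowered, chr14:84443313-84443562, plus strand): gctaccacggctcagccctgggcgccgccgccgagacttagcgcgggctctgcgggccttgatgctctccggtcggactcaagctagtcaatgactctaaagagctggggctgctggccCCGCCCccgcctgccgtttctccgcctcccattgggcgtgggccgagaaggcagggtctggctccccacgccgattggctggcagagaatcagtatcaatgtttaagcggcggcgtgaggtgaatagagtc
Cdh23 (lowered, chr10:60696491-60696740, minus strand): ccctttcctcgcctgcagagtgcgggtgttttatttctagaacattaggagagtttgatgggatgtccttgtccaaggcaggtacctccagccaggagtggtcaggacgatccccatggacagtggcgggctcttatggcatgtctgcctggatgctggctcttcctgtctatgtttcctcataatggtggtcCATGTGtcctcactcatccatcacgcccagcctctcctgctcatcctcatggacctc
The Cdh6 sequence held 1 E-box, 15 bases before the start, and 2 GC boxes, 84 and 80 bases before it. The Pcdh17 sequence held 1 GC box at 131 bases, and that of Cdh23 held 1 E-box at 57 bases. The 136 bases of Pcdh7 held neither. None of the 4 held a CArG box (the site of serum response factor) or the E-box form CAGGTG or CACCTG that the Snail and Zeb repressors recognise. Among 32851 mouse promoters of 250 bases, 66.2% held an E-box, 17.2% the CAGGTG or CACCTG form, 1.47% a CArG box and 32.7% a GC box. The matches are a description of these letters only.

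Pcdh7, a non-clustered protocadherin whose cytoplasmic side binds the phosphatase PP1 and the PP2A inhibitor SET, had the smallest p of the raised genes. Pcdh7 lies on chromosome 5, 57717967 to 58133230 (plus strand; GRCm38, as for the positions below). It had 797, 625, 550 and 544 CPM in colchicine libraries 1 to 4, against 175, 171, 254 and 310 CPM in vehicle libraries 1 to 4. The lowest colchicine library lay above the highest vehicle library. This was a log2 fold change of 1.47 ± 0.24 (SE; edgeR adjusted p = 0.0056). Per transcript length it averaged 227 ± 52.5 TPM with colchicine and 66.8 ± 27.5 TPM with vehicle (SD, n = 4 each). TPM was taken as deposited, without TMM factors. On log2(TPM + 1) the median of all genes was itself 0.35 higher with colchicine.

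Cdh6 (K-cadherin), a type II classical cadherin first described in kidney, had the largest rise. Cdh6 lies on chromosome 15, 13028701 to 13173675 (minus strand). It had 86.2, 70.2, 49.98 and 63.99 CPM in colchicine libraries 1 to 4, against 4.99, 3.13, 16.5 and 27.6 CPM in vehicle libraries 1 to 4. The groups did not overlap, and the vehicle libraries spread widely among themselves. Colchicine raised it by 2.37 ± 0.60 on the log2 scale (edgeR adjusted p = 0.018). The call was lost without colchicine 1 (adjusted p = 0.059) and without colchicine 2 (adjusted p = 0.0545), and the log2 fold change was 3.01 without vehicle 4.

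Vehicle libraries 1 and 2 were low and 3 and 4 were higher for both Pcdh7 and Cdh6. The smooth muscle markers followed the same order: Myh11, the smooth muscle myosin heavy chain, had 5480, 6084, 4886 and 4891 CPM in colchicine libraries 1 to 4 and 723, 573, 2131 and 3093 CPM in vehicle libraries 1 to 4. The summed list ran likewise, lowest in vehicle 2 and highest in vehicle 4. The colchicine libraries did not share an order in this way. Pcdh7 and Cdh6 were highest in colchicine 1, where the summed list was lowest (23223 CPM). Myh11 and the summed list were highest in colchicine 2. The part of smooth muscle RNA content in the rise of these genes was not tested.

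Cdh13 (T-cadherin), a receptor for adiponectin and low-density lipoprotein on vascular cells, was the most highly expressed of the 70 genes per transcript length. It averaged 330 ± 13.4 TPM with colchicine and 145 ± 75.0 TPM with vehicle (SD, n = 4 each), which include the shift of all genes given for Pcdh7. Cdh13 lies on chromosome 8, 118283733 to 119324921 (plus strand). In CPM it had 512, 557, 611 and 543 in colchicine libraries 1 to 4, against 247, 205, 402 and 355 in vehicle libraries 1 to 4, with no overlap. Its log2 fold change was 0.88 ± 0.23 (edgeR adjusted p = 0.0189). This call sat near the threshold: the adjusted p was 0.0511 without vehicle 1, 0.0544 without colchicine 1, 0.067 without colchicine 2 and 0.0572 without colchicine 4.

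Cdh18, a type II cadherin known from neurons, had 9.29, 8.90, 6.94 and 6.14 CPM in colchicine libraries 1 to 4, against 4.04, 5.22, 4.001 and 2.52 CPM in vehicle libraries 1 to 4. Cdh18 lies on chromosome 15, 22549022 to 23474418 (plus strand). The groups did not overlap. The log2 fold change was 0.98 ± 0.26 (edgeR adjusted p = 0.0213), and the adjusted p was 0.0531 without vehicle 1, 0.0629 without colchicine 1 and 0.0654 without colchicine 2. Through these losses the number of genes raised was 2 without vehicle 1 (of all genes, 11.2% were raised), and 1, Pcdh7, without colchicine 1 (6.81% of all genes) or without colchicine 2 (6.58%). It was 7 without vehicle 2 (14.4% of all genes), where Pcdh11x, Pcdhac2 and Pcdhga11 joined the 4.

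**Figure D2:**
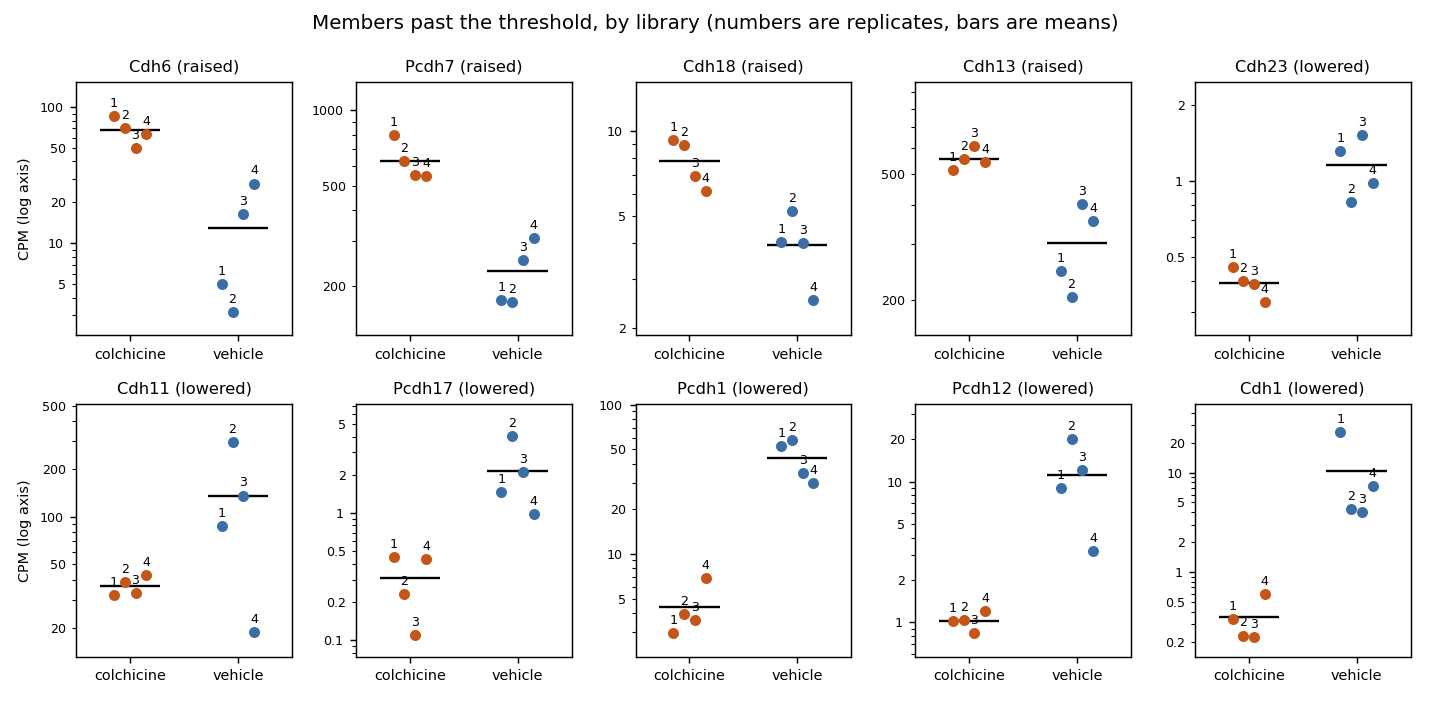
CPM (log axis) in each library for the 10 called genes, colchicine left and vehicle right; numbers are replicates and bars are group means. The groups separate in all but Cdh11, where vehicle 4 (18.8 CPM) lies below every colchicine library.

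Cdh1 (E-cadherin), the cadherin of epithelia, fell the most. Cdh1 lies on chromosome 8, 106603351 to 106670246 (plus strand). It had 0.340, 0.230, 0.222 and 0.603 CPM in colchicine libraries 1 to 4, against 25.6, 4.28, 4.001 and 7.38 CPM in vehicle libraries 1 to 4. In the colchicine libraries this was 6, 4, 4 and 11 counts. The log2 fold change was -4.85 ± 0.75 (edgeR adjusted p = 0.00486), -3.97 without vehicle 1 (adjusted p = 0.00513), and -3.53 without vehicle 1 and 4 (adjusted p = 0.00559). Vehicle 1 was far above the other vehicle libraries.

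None of 7 tested epithelial and mesothelial markers was called. Their sum with Epcam was 62.2 to 133 CPM in colchicine libraries and 50.5 to 194 CPM in vehicle libraries, and Epcam, the epithelial cell adhesion molecule, had at most 0.172 CPM with colchicine and 0.294 CPM with vehicle. Leukocyte markers were lower with colchicine, with a sum of 182, 126, 140 and 267 CPM in colchicine libraries 1 to 4 and 2178, 936, 494 and 918 CPM in vehicle libraries 1 to 4. Vehicle 1 was highest and vehicle 3 lowest in both Cdh1 and this sum, and colchicine 4 was the highest colchicine library in both. Vehicle 4 lay above vehicle 2 in Cdh1 and slightly below it in the sum. The full vehicle order of Cdh1 was that of the haemoglobin share (14.9%, 0.282%, 0.0419% and 6.21% in vehicle 1 to 4). Vehicle 2 and 3 were nearly equal in Cdh1, however, at 78 and 76 counts. The order did not extend across groups. Vehicle 3 had a lower haemoglobin share than every colchicine library (0.0914% to 0.318%), yet more Cdh1 than any of them (4.001 CPM against at most 0.603 CPM). Among colchicine libraries the haemoglobin share was highest in colchicine 2 (0.318%). The part of leukocyte RNA or of blood in the fall of Cdh1 was not tested.

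Pcdh1, an adhesion protein of airway epithelium and endothelium that also serves New World hantaviruses as a receptor, fell with the smallest p of the family. Pcdh1 lies on chromosome 18, 38185914 to 38212053 (minus strand). It had 2.95, 3.96, 3.61 and 6.91 CPM in colchicine libraries 1 to 4, against 52.6, 57.9, 34.9 and 29.96 CPM in vehicle libraries 1 to 4. The highest colchicine library lay well below the lowest vehicle library. Its log2 fold change was -3.33 ± 0.33 (edgeR adjusted p = 0.00388).

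Pcdh12 (VE-cadherin-2), a protocadherin of endothelial cells and some trophoblast cells, had 1.02, 1.03, 0.833 and 1.21 CPM in colchicine libraries 1 to 4, against 9.03, 20.2, 12.05 and 3.20 CPM in vehicle libraries 1 to 4. Pcdh12 lies on chromosome 18, 38267089 to 38284402 (minus strand). The groups did not overlap. The log2 fold change was -3.43 ± 0.52 (edgeR adjusted p = 0.00469). Endothelial markers did not move together. Of 8, Vwf, Tek and Pecam1 were called higher with colchicine (log2 fold changes 1.18, 1.01 and 0.95), while Kdr, the main receptor for vascular endothelial growth factor, was called lower (-2.82), as was Cdh5 (-0.83). The 8 summed to 1741 to 2567 CPM in colchicine libraries and 1076 to 1629 CPM in vehicle libraries, and every colchicine library lay above every vehicle library in this sum. Of 5 lymphatic endothelial markers, 3 were called lower and 1 higher, with sums of 69.0 to 95.8 CPM in colchicine libraries and 171 to 396 CPM in vehicle libraries. Vehicle 2 was the highest vehicle library in Pcdh12 and the lowest in the endothelial sum (1076 CPM). The part of endothelial RNA, or of other tissue, in the fall of Pcdh12 was not tested.

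Pcdh17, a protocadherin of synapses and axons, had 0.453, 0.230, 0.111 and 0.439 CPM in colchicine libraries 1 to 4, against 1.47, 4.01, 2.11 and 0.984 CPM in vehicle libraries 1 to 4. These were 8, 4, 2 and 8 counts with colchicine, and a count of 3 equals 0.158 to 0.22 CPM depending on the library, so colchicine 3 was below that level. Its log2 fold change was -2.77 ± 0.57 (edgeR adjusted p = 0.00916). Cdh23, a long cadherin of the tip links of inner-ear hair cells, had 0.453, 0.402, 0.389 and 0.329 CPM in colchicine libraries 1 to 4, against 1.32, 0.824, 1.53 and 0.984 CPM in vehicle libraries 1 to 4. Its log2 fold change was -1.55 ± 0.33 (edgeR adjusted p = 0.0107), and the adjusted p was 0.0501 with the replicate number as a block. Pcdh17 lies on chromosome 14, 84443563 to 84539002 (plus strand). Cdh23 lies on chromosome 10, 60302748 to 60696490 (minus strand) and overlaps Vsir, an immune checkpoint gene on the opposite strand. The strand setting of the counting is not given in the sources used here, so reads of these genes may not be told apart. The groups did not overlap for either Pcdh17 or Cdh23.

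Cdh11 (OB-cadherin), the type II cadherin of fibroblasts and bone-forming cells, was lowered at the edge of the threshold. Cdh11 lies on chromosome 8, 102632095 to 102785642 (minus strand). It had 31.96, 38.8, 32.8 and 43.0 CPM in colchicine libraries 1 to 4, against 87.0, 296.8, 135.7 and 18.8 CPM in vehicle libraries 1 to 4. The vehicle libraries spanned the colchicine values, and vehicle 4 lay below all of them. The log2 fold change was -1.88 ± 0.64 (edgeR adjusted p = 0.0487). The call was kept in 5 of 18 alternative analyses. Leaving out a single library gave adjusted p values of 0.0528 (vehicle 1), 0.125 (vehicle 2), 0.0672 (vehicle 3), 0.114 (colchicine 1), 0.102 (colchicine 2), 0.107 (colchicine 3) and 0.0873 (colchicine 4), and 0.00596 without vehicle 4. Without vehicle 2 the log2 fold change was -1.14. Col1a1, a chain of the main fibrillar collagen, had 6558 to 9144 CPM in colchicine libraries and 6162, 35575, 12618 and 2527 CPM in vehicle libraries 1 to 4, the same order among vehicle libraries as Cdh11. Cartilage and bone markers had that order too, with a sum of 50.7 to 125 CPM in colchicine libraries and 313, 764, 459 and 59.4 CPM in vehicle libraries 1 to 4, and 3 of 4 tested were called lower. Of the other lowered genes, Pcdh12 and Pcdh17 also had that order among vehicle libraries, while Cdh1, Pcdh1 and Cdh23 had other orders. The order was not particular to lowered genes, since Cdh2 and Pcdhgc3, which were not called, had it too. Nor did it extend across groups: vehicle 1 lay below every colchicine library in Col1a1 and above all of them in Cdh11. The part of these tissues in the fall of Cdh11, Pcdh12 or Pcdh17 was not tested.

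Cdh2 (N-cadherin), which joins smooth muscle cells to each other, was not called. It had 17.0, 8.38, 9.22 and 13.6 CPM in colchicine libraries 1 to 4, against 13.7, 42.2, 20.0 and 7.57 CPM in vehicle libraries 1 to 4. The groups overlapped, and vehicle 2 was the highest. The log2 fold change was -0.79 ± 0.48 (edgeR adjusted p = 0.217), -0.19 without vehicle 2 (adjusted p = 0.70) and -1.36 without vehicle 1 and 4 (adjusted p = 0.0241). Cdh3 (P-cadherin), found in basal epithelia, showed the same shift: its log2 fold change was -1.29 ± 0.53 (adjusted p = 0.0849), and -1.95 without those libraries (adjusted p = 0.00847). Without vehicle 1 alone it was -1.67 (adjusted p = 0.0363) and without vehicle 4 alone -1.54 (adjusted p = 0.0448), and DESeq2 with all 8 libraries called it lower (-1.30, adjusted p = 0.0325). Vehicle 1 and 4 were the lowest vehicle libraries of both Cdh2 and Cdh3. For Cdh3 they had 7.27 and 8.98 CPM, against 43.9 and 18.5 CPM in vehicle 2 and 3. Leaving them out thus kept only the highest vehicle libraries. Cdh4 (R-cadherin), known from retina, had a log2 fold change of 1.05 ± 0.46 (adjusted p = 0.103), and 1.52 without vehicle 3 (adjusted p = 0.0295).

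Several low genes lay close to the threshold on the high side. Pcdh11x, an X-linked protocadherin of brain, had 4.14, 2.18, 1.61 and 2.25 CPM in colchicine libraries 1 to 4, against 0.734, 0.110, 1.00 and 1.29 CPM in vehicle libraries 1 to 4. Its groups did not overlap, and its log2 fold change of 1.69 ± 0.58 just missed the threshold (edgeR adjusted p = 0.0502). In edgeR it passed without vehicle 2 (adjusted p = 0.0447), without vehicle 4 (0.0385) and with the filter of 1 CPM in 4 libraries (0.0484). It also passed with DESeq2 (0.0184), limma-voom (0.0443), log2(TPM + 1) (0.0473) and log2(TPM + 0.1) (0.0432). The medians of all genes were themselves 0.35 and 0.40 on these TPM scales. On log2(TPM + 1) the change of Pcdh11x was 0.86, and 0.51 relative to that median. Cdh19, a cadherin of Schwann cells and their precursors, had a log2 fold change of 1.22 ± 0.42 (adjusted p = 0.0526), and 1.49 without vehicle 3 (adjusted p = 0.0358). Of 7 tested Schwann cell markers, Prx was called higher and Mbp lower, with summed levels of 29.1 to 38.7 CPM in colchicine libraries and 35.8 to 56.3 CPM in vehicle libraries. Pcdh20 had a log2 fold change of 1.31 ± 0.50 (adjusted p = 0.0676), and 1.63 without vehicle 4 (adjusted p = 0.0428).

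Cdh16 (Ksp-cadherin), a cadherin of kidney tubule and thyroid, had 1.93, 2.53, 1.61 and 1.59 CPM in colchicine libraries 1 to 4, against 0, 0.055, 1.05 and 1.11 CPM in vehicle libraries 1 to 4. The groups did not overlap, but the edgeR adjusted p was 0.125 at a log2 fold change of 1.75 ± 0.82. It was called higher by limma-voom (2.93, adjusted p = 0.0381), on log2(TPM + 1) (1.26, adjusted p = 0.0308) and on log2(TPM + 0.1) (2.74, adjusted p = 0.0469). Relative to the median of all genes, the log2(TPM + 1) change of Cdh16 was 0.91. Thyroid markers summed to 2.55 to 3.51 CPM with colchicine and 2.46 to 5.42 CPM with vehicle, and the thyroid factor Foxe1 was at 0 in all 8 libraries. Of the other uncalled genes outside the clusters, Pcdh9, Pcdh10, Pcdh18 and Cdh26 had positive log2 fold changes of 0.16 to 1.18, and Pcdh19 and Cdh24 negative ones of -0.56 and -0.66. Pcdh19 and Cdh24 were called lower without vehicle 1 and 4 (log2 fold changes -0.99 and -1.28). Vehicle 1 and 4 were the lowest vehicle libraries of Cdh24. In Pcdh19 vehicle 4 was the lowest and vehicle 2 the highest.

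Too low for the test, although past the count limit, were 7 genes: Cdh10, Cdh12, Cdh17, Pcdh15, Pcdhb2, Pcdhb6 and Pcdhb10. Cdh12, a neuronal type II cadherin, had 23, 13, 6 and 6 counts in colchicine libraries 1 to 4, against 0, 1, 1 and 2 counts in vehicle libraries 1 to 4. Without the filter it was called higher (log2 fold change 3.39, edgeR adjusted p = 0.0146). Cdh10, another type II cadherin of neurons, had 0, 1, 0 and 1 counts in colchicine libraries 1 to 4, against 3, 34, 5 and 1 counts in vehicle libraries 1 to 4. Without the filter it was called lower (-4.11, adjusted p = 0.0375), with most of its counts in vehicle 2. Fitted fold changes at such counts depend on the prior count.

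The clustered protocadherins made up 43 of the 70 genes, and lie head to tail on the plus strand of chromosome 18, which holds 46 of the 70. In GRCm38 the alpha array spans positions 37143503 to 37187657 over the genes used here, the beta array 37294812 to 37524479 and the gamma array 37661793 to 37841873. The alpha array had 1 gene above the count limit (Pcdhac2) of 14, the beta array 21 of 22 and the gamma array 21 of 21. Of the deposited gamma counts, 100% were not whole numbers (tolerance 0.001), as were 100% of those of Pcdhac2, beside 5.95% for beta genes and 0% for the genes outside the clusters. Isoforms of the gamma array overlap each other through their constant exons, so single gamma values are uncertain and the array's sum is given as well.

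None of the 40 tested clustered genes was called by edgeR, DESeq2 (41.6% of all genes called) or limma-voom (32% of all genes), and 2 had an unadjusted edgeR p below 0.05. Their log2 fold changes ran between -0.62 and 0.71, their standard errors between 0.179 and 0.614 and their adjusted p values between 0.0772 and 0.964. The beta genes had a median log2 fold change of 0.22 and the gamma genes one of -0.04. A missed threshold does not show equal levels: the vehicle libraries were widely spread, with vehicle 2 the highest vehicle library in 28 of the 40 genes and vehicle 4 the lowest in 24. Over all 63 tested genes, 58 varied more among vehicle than among colchicine libraries. The median SD of log2 CPM was 0.256 in colchicine libraries and 0.705 in vehicle libraries, beside 0.182 and 0.394 over all genes tested. Without vehicle 1 and 4, edgeR called 5 of 43 clustered genes lower (Pcdhgc5, Pcdhgc3, Pcdhgb1, Pcdhgb6 and Pcdhga3) and 0 higher, in a fit that called 20.3% of all genes lower. In each of these 5 genes vehicle 1 and 4 were the lowest vehicle libraries, so that fit kept only the highest. Without vehicle 1 alone Pcdhgc5 was called lower (-0.98), and without vehicle 2 Pcdhga11 (0.75) and Pcdhac2 (1.12) were called higher.

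Summed over the gamma array, colchicine libraries 1 to 4 had 403, 396, 443 and 431 CPM, against 336, 680, 508 and 330 CPM in vehicle libraries 1 to 4. The vehicle values lay on both sides of the colchicine values (418 ± 22.3 CPM with colchicine and 464 ± 167 CPM with vehicle, SD, n = 4 each). The beta array summed to 68.7, 68.4, 65.4 and 64.4 CPM in colchicine libraries and 57.9, 65.0, 67.0 and 38.8 CPM in vehicle libraries. It averaged 66.7 ± 2.17 CPM with colchicine and 57.2 ± 12.8 CPM with vehicle, and the groups overlapped. The alpha array was barely expressed, at 2.89 to 3.67 CPM with colchicine and 1.47 to 4.17 CPM with vehicle.

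**Figure D3:**
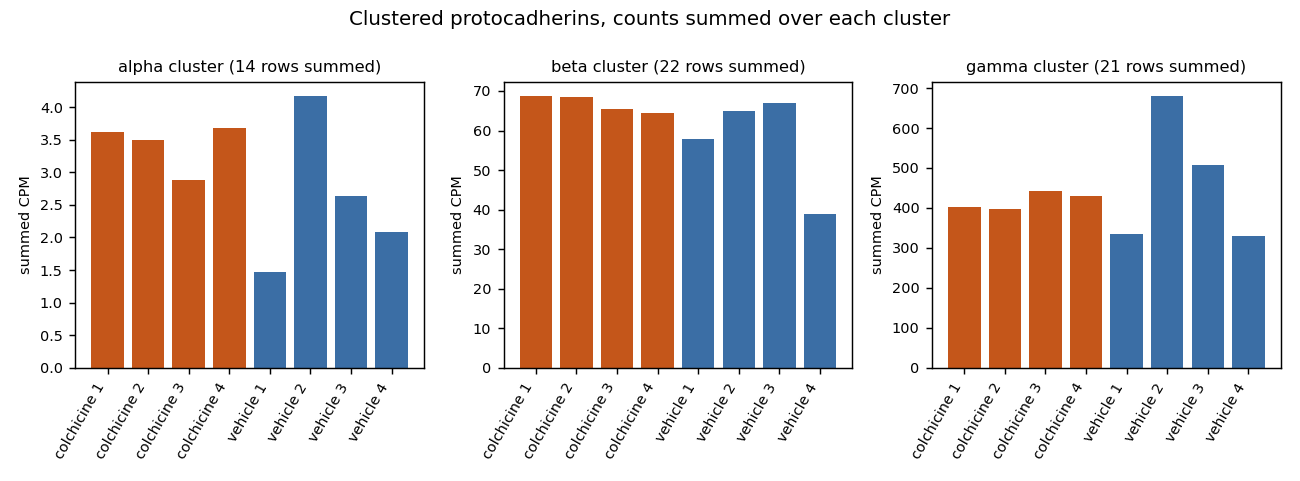
Summed CPM of the alpha, beta and gamma arrays in each library, colchicine (orange) left and vehicle (blue) right; each bar is 1 library, and the axes start at 0. The gamma sums of colchicine libraries lie between 396 and 443 CPM, inside the vehicle range of 330 to 680 CPM.

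A pair of C-type isoforms carried most of the gamma signal per transcript length. Pcdhgc3, the isoform expressed most widely outside neurons, took 39.5% of the array's TPM and Pcdhgc4 31.2%. Pcdhgc3 had 181, 183, 195 and 208 CPM in colchicine libraries 1 to 4, against 150, 348, 241 and 142 CPM in vehicle libraries 1 to 4. The groups overlapped, and the log2 fold change was -0.20 ± 0.28 (edgeR adjusted p = 0.587). Without vehicle 2 it was 0.11. Pcdhgc3 was 39.0% ± 2.76 of gamma TPM with colchicine and 38.2% ± 4.65 with vehicle (SD, n = 4 each). Pcdhgc4, which neurons need for survival, had 62.1, 61.7, 100.5 and 62.1 CPM in colchicine libraries 1 to 4, against 98.9, 96.7, 102.7 and 83.4 CPM in vehicle libraries 1 to 4. Colchicine 3 lay among the vehicle libraries and the other 3 colchicine libraries lay below them. Its log2 fold change was -0.41 ± 0.19 (edgeR adjusted p = 0.11), and -0.62 without colchicine 3 (adjusted p = 0.0225).

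Per transcript length the family's expression was concentrated in few genes. Averaged over all 8 libraries, Cdh13 (238 TPM), Pcdh7 (147 TPM), Pcdhgc3 (91.1 TPM), Pcdhgc4 (72.0 TPM) and Cdh11 (30.5 TPM) made up 78.6% of the summed TPM of the 70 genes. In the colchicine libraries Cdh13 and Pcdh7 came first and second. In the vehicle libraries Cdh13 came first, and the next in order, Pcdhgc3 (89.6 ± 56.6 TPM), Pcdhgc4 (73.8 ± 25.7 TPM) and Pcdh7 (66.8 ± 27.5 TPM), did not differ beyond their spread. Averages were below 10 TPM for 63 of the 70 genes and below 1 TPM for 29.

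The partners of cadherins were counted in lists, each beside the background of 17.4% raised and 17% lowered. Of 13 tested catenins and related armadillo proteins, 3 rose and 3 fell. Ctnna3, an alpha-catenin of muscle (log2 fold change 1.75), Pkp4 (1.14) and Ctnnal1 (0.96) rose. Pkp1 (-3.82) and Pkp3 (-3.06), desmosomal plakophilins, and Ctnnd2 (-1.66), a delta-catenin of neurons, fell. On log2(TPM + 1), 4 of 11 tested rose and 1 fell, beside 17.8% and 6.56% of all genes. The gene that fell there was Pkp1 (-1.42, adjusted p = 0.0481), and Pkp3 and Ctnnd2 were too low for that fit. Ctnnb1 (beta-catenin), named here for its role after its value was seen, had a log2 fold change of 0.12 (edgeR adjusted p = 0.595).

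Of 20 tested linkers and scaffolds of adherens junctions, 10 rose and 4 fell, with a median log2 fold change of 0.50. The 4 with the largest changes were Nectin4 (-2.06) and Nectin2 (-1.44), immunoglobulin-type adhesion receptors, the actin-binding Ablim1 (1.28) and the receptor phosphatase Ptprj (1.27). On log2(TPM + 1), where the median of all genes was 0.35 and 17.8% of them rose and 6.56% fell, 7 rose and 1 fell, and both nectins were not called. Of 14 tested proteases and their subunits that process cadherins, Aph1b (1.39), a gamma-secretase subunit, rose, and Furin (-0.67) and Psenen (-0.57) fell. Neither Furin nor Psenen was called on log2(TPM + 1). Of 9 tested repressors of cadherin genes, Klf8 (1.09) and Zeb1 (0.65) rose and Snai1 (-2.77) and Tcf3 (-0.88) fell, with Tcf3 not called on log2(TPM + 1).

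Of 17 tested factors that act at protocadherin promoters, such as cohesin, its loader and DNA methyltransferases, 10 rose and 0 fell, with a median log2 fold change of 0.58. The largest changes were in Nipbl (1.20), the cohesin loader, Stag2 (1.15), a cohesin subunit, Pds5b (1.06), a cohesin regulator, and Dnmt3a (0.96), a DNA methyltransferase. The count was 9 to 11 under other scalings and without vehicle 1 and 4, and Dnmt3a was not called without TMM factors (adjusted p = 0.068) or on log2(TPM + 1) (adjusted p = 0.050). Of 16 tested effectors of protocadherins (the WAVE actin complex, focal adhesion kinases and others), 3 rose and 5 fell. Nckap1l (-2.39), the WAVE subunit of blood cells, Ptk2b (-1.95), a focal adhesion kinase, and the WAVE-complex members Cyfip2 (-1.55) and Abi3 (-0.89) had the largest changes, and all 4 fell. On log2(TPM + 1), 2 rose and 2 fell, and neither Cyfip2 (adjusted p = 0.0819) nor Abi3 (adjusted p = 0.31) was called. Nckap1l and Ptk2b are abundant in leukocytes, whose markers were lower with colchicine as given above, and the part of leukocyte RNA in them was not tested. Of 12 tested genes of the wider cadherin superfamily, Celsr1 (1.04) and Fat4 (0.64), planar polarity cadherins, and Clstn1 (0.71), a calsyntenin, rose and the receptor tyrosine kinase Ret (-1.37) fell. None of these 4 was called without TMM factors.

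The called genes differed in how far they depended on single libraries and settings. Cdh1, Pcdh12, Pcdh1 and Pcdh7 were past the threshold in all 18 alternative analyses run, and Pcdh17 in all 16 that could test it. Cdh6 held in 16 of 18, Cdh18 in 15 of 18, Cdh13 in 14 of 18, Cdh23 in 14 of 15 and Cdh11 in 5 of 18. No called gene changed sign in any of them.

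The number of the family's genes past the threshold moved with the analysis, and so did the share of all genes. It was 10 with RLE factors (34.2% of all genes tested), 9 without TMM factors (28%), 11 without the low-count filter (25.5%) and 10 with a filter of 1 CPM in 4 libraries (35%). It was 8 with the replicate number as a block (17.2%), 12 with DESeq2 (41.6%), 11 with limma-voom (32%), and 9 on log2(TPM + 1) (24.4%) and on log2(TPM + 0.1) (22.8%), where 3 of the 9 were lowered, beside 6.56% and 6.59% of all genes. Without vehicle 1, 2, 3 or 4 it was 9 (29.6%), 12 (29.6%), 11 (34.4%) and 13 (37.3%). Without colchicine 1, 2, 3 or 4 it was 6 (17.4%), 6 (16.2%), 10 (24%) and 8 (21.4%). Without vehicle 1 and 4 together, which leaves only vehicle 2 and 3 as the vehicle group, it was 20 (40.5%), 15 of them lowered. At an adjusted p of 0.01, 1 gene of the family was raised (4.49% of all genes) and 4 were lowered (5.96%). At 0.1, 9 were raised (23%) and 7 lowered (22.8%).

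**Figure D4:**
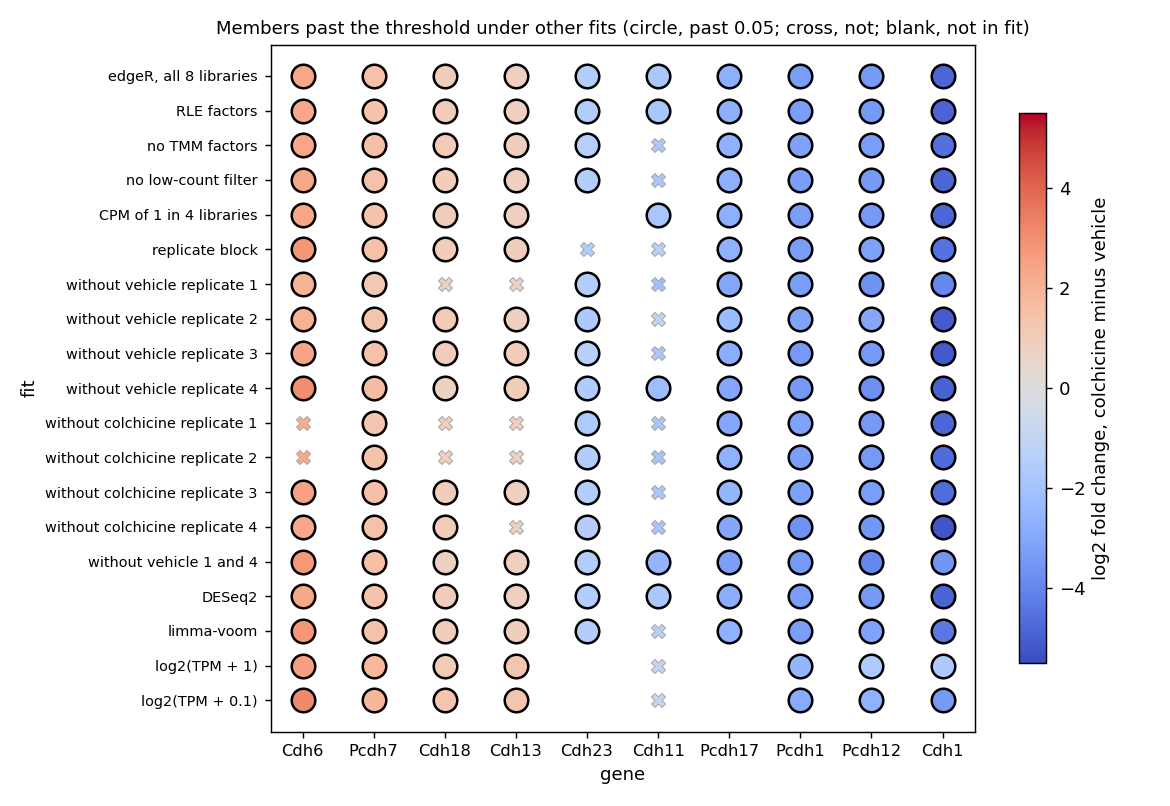
Log2 fold change (colour, colchicine minus vehicle) of the 10 called genes in edgeR with all 8 libraries (top) and in 18 alternative analyses; circles are past an adjusted p of 0.05, crosses are not, and blanks were not fitted. Cdh11 is past it in 5 of 18, and Cdh1, Pcdh12, Pcdh1 and Pcdh7 in all 18.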

How the data were processed

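The submitters measured total RNA of mouse aorta by bulk RNA-seq in 4 colchicine and 4 vehicle libraries, prepared with a SMARTER mRNA kit per the labels' protocols. The deposited table holds expected counts (estimated counts per gene, some not whole) and TPM per library. The genome build was mm10, per the submitters' processing notes. Neither aligner nor counter, annotation or strand setting is named in these sources. The TPM column of vehicle 3 has no unit in its header and was read as TPM, since its values sum to the same total as the others.

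After rounding of the estimated counts to integers, genes were filtered with filterByExpr, scaled with TMM and tested with edgeR 4.0.16 (quasi-likelihood, no covariate), adjusted by Benjamini-Hochberg over 13431 genes at 0.05, in R 4.3.3. SE is the log2 fold change divided by the square root of F. TMM factors were 0.762 in vehicle 1 and 0.987 to 1.08 in the others. Totals of 15427880 to 18459988 counts make 3 counts equal to 0.158 to 0.22 CPM. Counting error only is covered by this level. SDs of log2 CPM used a pseudocount of 0.1. Gene positions are from GENCODE (GRCm38), and promoters from RefSeq. The test was checked on simulated counts with the same dispersion in both groups. That check does not cover the wider spread of the vehicle libraries here. Alternatives were other scalings, filters, DESeq2 1.42.0, limma 3.58.1 (voom, and log2(TPM + 1) or log2(TPM + 0.1) for genes with a mean of at least 1 TPM in a group), a replicate block, each library left out and other thresholds.

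The genes and lists were chosen with earlier results of these data known. Values by library are given for called genes, the 5 genes highest in TPM, and Cdh2, Cdh6, Cdh11 and Cdh13; genes near the threshold and untested ones were added after their values were seen. Of partner lists, up to 4 called genes with the largest change were named; Pkp4, Ctnnal1 and Ctnnb1 were added after their values were seen.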

Additional observations from a re-analysis of the deposited data

Results flagged for a closer look

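In groups of 4 libraries, 2 values stood far from the rest of their group by Dixon's test, of 26 groups examined (13 genes in either group), and chance gives about 1 in 20. Pcdhgc4 was far higher in colchicine 3 (100.5 CPM) than in the other colchicine libraries (62.1, 61.7 and 62.1 CPM), with a ratio of gap to range of 0.99; the vehicle libraries had 83.4 to 102.7 CPM. Cdh1 had 0.222 to 0.603 CPM in the colchicine libraries, and in the vehicle group it was far higher in vehicle 1 (25.6 CPM) than in the others (4.28, 4.001 and 7.38 CPM), with a ratio of 0.844.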

How the results depend on the processing

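Of the genes named by library, Pcdhgc3 changed sign: its log2 fold change was 0.11 without vehicle 2 (-0.45 to 0.11 over single libraries left out), 0.29 on log2(TPM + 1) and 0.30 on log2(TPM + 0.1), where the median of all genes was 0.35 and 0.40. Leaving out 1 library at a time gave 1 to 7 raised and 5 to 7 lowered genes of the family, and 898 to 2420 raised and 1309 to 2642 lowered of all genes. Without vehicle 1 and 4 the family had 15 lowered genes, in a fit with only vehicle 2 and 3 as the vehicle group. On log2(TPM + 1) and log2(TPM + 0.1) it had 3 each, with 863 and 867 of all genes lowered; Pcdh17 and Cdh23 were too low for that fit. An adjusted p of 0.01 gave 1 raised and 4 lowered genes of the family and 603 raised and 801 lowered of all genes, and one of 0.1 gave 9 raised and 7 lowered genes of the family. With the replicate number as a block, 8 genes of the family were called, and of all genes 1121 were raised and 1184 lowered. Same-numbered libraries of the 2 groups correlated at -0.11, -0.16, 0.03 and -0.25 in their deviations. These values gave no sign of pairing by number, but so few correlations cannot exclude it. The causes were not tested. Limits are 4 libraries a group, the wide spread of vehicle libraries, low counts of many of these genes, the missing strand setting and gamma isoforms that share exons.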
